A study of Mus musculus with 75 samples.

Results

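Mesenteric lymph nodes drain the gut, and the nodes described here came from C57BL/6 mice of 22 months and of 3 months. The comparison rests on 6 of the 75 samples of the series: the libraries of 3 aged mice, called aged 1, 2 and 3, and of 3 young mice, called young 1, 2 and 3, numbered as in the labels. All 6 mice were untreated wild types that had been perfused with saline before the nodes were excised and frozen, and RNA from whole nodes was sequenced. The labels give no sex, and Xist, which marks cells with 2 X chromosomes, was 52.1, 57.8 and 58.7 in the aged and 49.6, 51.1 and 66.3 in the young libraries. The series also holds cervical and inguinal lymph nodes and spleen under the same mouse codes, and these serve here as the comparison organs.

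A lymph node is a meeting place of naive lymphocytes and antigen. T and B cells enter from the blood through high endothelial venules, are held in T cell zones and follicles by chemokines of the stroma, and leave again unless they meet their antigen. Activated B cells form germinal centres, where antibody genes mutate under selection, and then become plasma cells. In mice, ageing is known for a shrinking naive T cell pool and for more memory T cells and antibody-secreting cells.

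Values are the deposited ones, with the transcript of the highest mean standing for each gene. How they were counted and scaled is not stated in the sources used here, and they behave as weighted reads per RefSeq transcript divided by 1 factor per library. Read in that way, the 6 libraries held between 460661 and 1066314 reads and 1 read was worth between 0.527 and 1.28 in these units. Genes near that level were measured with little precision. The labelled tissue was present in each library: Cd79a, a chain of the B cell receptor complex, was 187, 281 and 247 in the aged and 363, 118 and 203 in the young libraries, and Cd3e, a chain of the T cell receptor complex, was 117, 139.9 and 129 in the aged and 127, 115 and 84.9 in the young libraries. Young 2 and 3 also held transcripts of neighbouring organs. In young 2, 16.2% of all values belonged to 1117 colon genes, defined from the colon libraries of the same series, against 1.44% to 2.35% in the other 5 libraries. In young 3, a list of 70 pancreas genes took 9.87% of the values, against 1.01% in young 2 and at most 0.030% in the other 4. Young 3 was also rich in fat cell transcripts, with Adipoq, a fat cell hormone, at 86.1, 286 and 119 in the aged and 175, 162 and 883 in the young libraries.

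**Figure D1:**
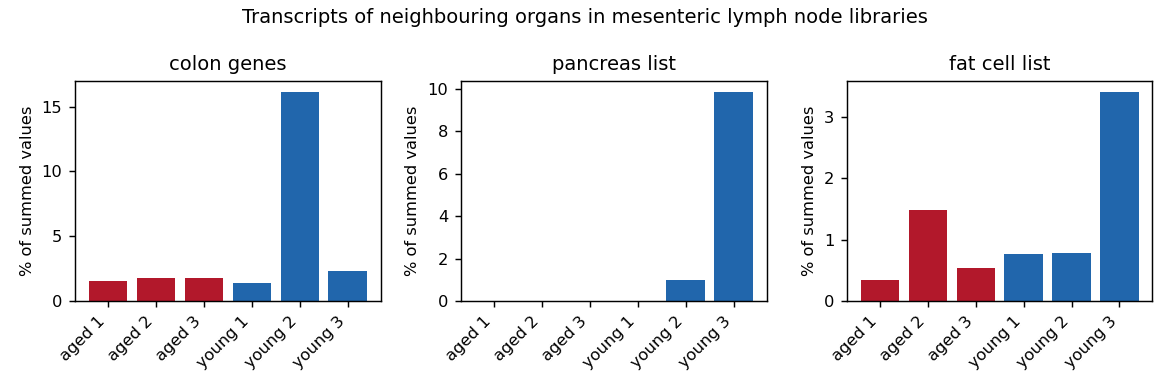
Share of the summed deposited values (y axes, percent) taken by 1117 colon genes, a pancreas list of 70 genes and a fat cell list of 22 genes in each of the 6 libraries (x axes; red aged, blue young). The colon bar of young 2 stands at 16.2% and the pancreas bar of young 3 at 9.87%, while the aged libraries stay at 1.82% or less in both panels.

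Colon and pancreas genes were therefore set aside from the counts, and the lists and called genes are given with all 6 libraries and without young 2. A single change of another gene is the one without young 2. Its value with all 6 is added where the sign or the side of an unadjusted p of 0.05 differed, or the size by over 1.5 times. Young 2 held less of the node's own stroma: Ccl21a, a T cell zone chemokine whose values cannot be told from those of its copy Gm1987, was 519.5, 466 and 525 in the aged and 540.2, 106 and 469 in the young libraries. Log2 changes in mesenteric nodes are differences of log2(value + 1.28), where 1.28 is the largest value that 1 read is worth in the 6 libraries. They understate changes of low genes. In RNA from whole nodes, fewer cells of a type and less RNA per cell cannot be told apart.

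With all 6 libraries, 6 of 9680 genes passed an adjusted p of 0.05: C130026I21Rik, S100a9, Sncg, Gzmk and Nuggc were higher with age, which is 0.0517% of the genes tested, and Dapl1 was lower, which is 0.0103%. Without young 2, the same 6 genes passed among 10165, together with Pla2g2d, Irak1bp1, Mcm10, S100a8 and Ngp, all higher (0.0984% higher and 0.00984% lower). At an unadjusted p under 0.05, 877 genes lay apart with all 6 libraries and 759 without young 2. The called set depended on single libraries: 1 gene passed without aged 1 or without aged 3, 3 passed without aged 2, 10 without young 1 and 7 without young 3. C130026I21Rik passed in each of these 5 fits. In all 11 genes the aged and young values did not overlap, which also held for 9.39% (higher) and 6.05% (lower) of all genes with the 6 libraries and for 13.3% and 10.4% without young 2. To be tested, a gene had to reach 5.14 in enough libraries, and 1 group alone could meet this. C130026I21Rik, Gzmk, Nuggc, Irak1bp1, Mcm10 and Ngp met it through the aged group alone, so they could hardly come out lower. The same holds for members of the lists below, such as Ccl4, Sostdc1 and Tigit.

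**Figure D2:**
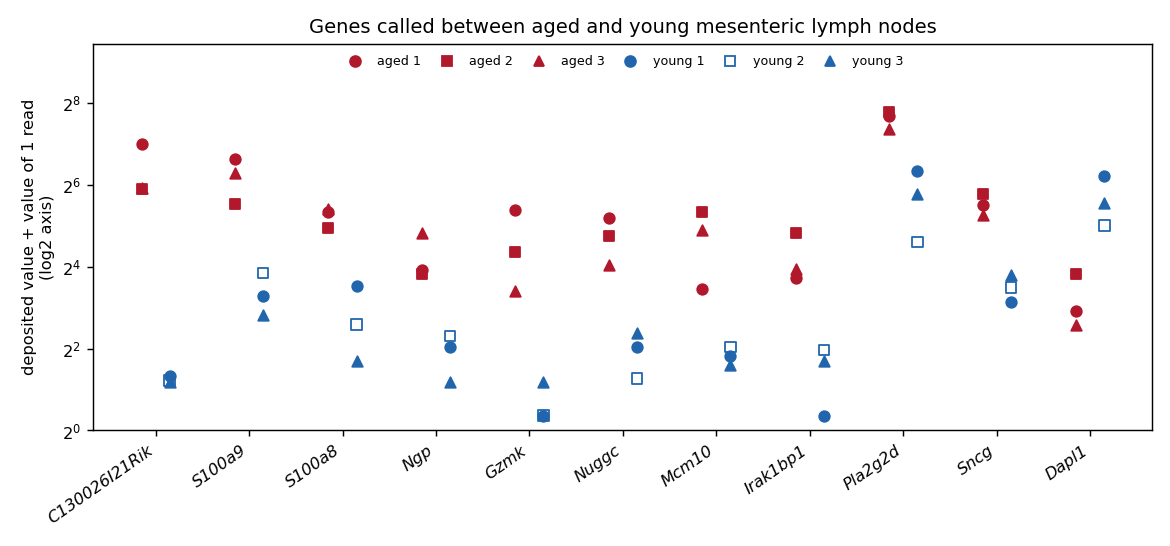
Deposited value plus the value of 1 read (log2 y axis) of the 11 genes called without young 2 (x axis), with 1 point per library: red for aged, blue for young, the open square for young 2. For each of the 10 higher genes every aged point lies above every young point, and for Dapl1 every aged point lies below.

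T cells showed the change of a single naive marker and a single effector gene beyond the threshold. Gzmk (NM_008196), a granzyme of effector memory T cells, was 40.8, 19.3 and 9.39 in the aged and 0, 0 and 0.975 in the young libraries. Its transcript was thus at no more than about 1 read in each young library and at several reads or more in each aged one. The log2 change was 3.62 (SE 0.58, adjusted p = 0.00635) without young 2 and 3.76 (SE 0.59, adjusted p = 0.0462) with all 6 libraries, a fitted value that depends on the added constant because the young libraries were at or near 0. Dapl1 (NM_029723), a transcript abundant in naive T cells, was 6.28, 12.8 and 4.7 in the aged and 73, 31.1 and 45.8 in the young libraries. It fell by 2.78 on the log2 scale without young 2 (SE 0.42, adjusted p = 0.00278) and by 2.49 with all 6 libraries (adjusted p = 0.0462).

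Of the 28 genes of the cytotoxic and effector memory list, 23 were measured well enough to test without young 2. The median log2 change was 0.79, against 0.01 over all genes tested, and 14 of the 23 were higher at an unadjusted p under 0.05 (4.62% of all genes) and 0 lower (2.84%). Ccl4, a chemokine of activated T and NK cells, was 38.9, 5.14 and 8.22 in the aged and 0, 1.05 and 0.975 in the young libraries. Ccl4 differed by 2.99 (SE 0.72, unadjusted p = 0.000483, adjusted p = 0.175) without young 2. Gzmk and Ccl4 could be tested through their aged values alone and so could hardly come out lower. Ccl5, a chemokine that memory CD8 T cells make, was 501, 401 and 389 in the aged and 285, 212 and 188 in the young libraries, so the groups did not overlap, and its change was 0.88 (SE 0.25, unadjusted p = 0.00194, adjusted p = 0.282) without young 2. Tbx21 and Eomes, the T-box factors of effector and memory T cells, had changes of 1.59 and 0.95 (adjusted p = 0.284 and 0.613). Not every killer cell gene lay higher. Gzma was 22, 12.8 and 11.7 in the aged and 14, 9.49 and 17.6 in the young libraries, with overlapping groups. Prf1, the pore-forming protein perforin, had a change of -0.40 and Klrd1, an NK receptor subunit, one of -0.55, or -0.29 with all 6 (unadjusted p without young 2 = 0.372 and 0.175). With all 6 libraries 14 of 22 genes of the list were again higher at an unadjusted p under 0.05 and 0 lower, against 5.59% and 3.47% of all genes, and the median was 0.93 against 0.02. Of 12 NK cell markers only 2 could be tested, Tyrobp and Fcgr3, which myeloid cells share. The sum over all 12 was 472, 253 and 217 in the aged and 212, 91 and 253 in the young libraries, and is not a level of NK cells alone.

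The list of regulatory and exhausted T cell genes had 20 of 23 members tested without young 2, a median of 0.65, 9 members higher at an unadjusted p under 0.05 (4.62% of all genes) and 1 lower (2.84%). In the fit with all 6, 19 were tested, with a median of 0.66, 7 higher (5.59%) and 1 lower (3.47%). Leaving out aged 1 as well as young 2 lowered the median to 0.37. Sostdc1, an antagonist of bone morphogenetic proteins that T follicular cells express, had the smallest p of the list and was 10.1, 17.3 and 15.3 in the aged and 0, 0 and 2.93 in the young libraries. Sostdc1 differed by 2.71 (SE 0.58, unadjusted p = 0.000109, adjusted p = 0.0692) without young 2. The inhibitory receptors Ctla4, Pdcd1 and Tigit also lay higher. Ctla4 was 28.3, 21.8 and 21.1 in the aged and 12.2, 5.8 and 2.93 in the young libraries. Ctla4 differed by 1.72 (SE 0.46, unadjusted p = 0.00107, adjusted p = 0.225) without young 2. Pdcd1, which encodes PD-1, was 44.6, 24.4 and 11.7 in the aged and 12.2, 3.16 and 4.88 in the young libraries. Pdcd1 differed by 1.45 (SE 0.50, unadjusted p = 0.00927, adjusted p = 0.441) without young 2. Tigit was 23.3, 6.42 and 8.51 in the aged and 1.87, 2.64 and 1.95 in the young libraries. Tigit differed by 1.94 (SE 0.58, unadjusted p = 0.00263, adjusted p = 0.287) without young 2. In these 3 the aged values lay above all young values except for the aged 3 value of Pdcd1, which lay below young 1. Foxp3, the master factor of regulatory T cells, showed no such separation at 10.7, 10.3 and 7.04 in the aged and 7.49, 7.91 and 12.7 in the young libraries (change -0.08, 0.01 with all 6, unadjusted p = 0.865 and 0.979), and Gpr83, a receptor of the same cells, was 2.36, 1.28 and 0 in the aged and 9.36, 10 and 6.18 in the young libraries. Gpr83 differed by -1.96 (SE 0.84, unadjusted p = 0.0285, adjusted p = 0.61) without young 2.

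Naive T cell genes leaned the other way. Without young 2, 18 of the 19 genes of the list were tested, with a median of -0.39, 0 higher and 7 lower at an unadjusted p under 0.05 (4.62% and 2.84% of all genes). The median of the 18 with all 6 was -0.32, with 0 higher and 6 lower (5.59% and 3.47%). Lef1, a transcription factor of naive T cells, was 7.18, 25.8 and 20 in the aged and 60, 68.6 and 35.1 in the young libraries, so every aged value lay below every young one. Its change was -1.48 (SE 0.45, unadjusted p = 0.0043, adjusted p = 0.336) without young 2. Tcf7, its partner factor, was 81.7, 74.5 and 109 in the aged and 189, 157 and 111 in the young libraries. Tcf7 differed by -0.73 (SE 0.29, unadjusted p = 0.0211, adjusted p = 0.579) without young 2. Satb1, a chromatin organiser of T cells, was 32, 44.9 and 64.6 in the aged and 95.5, 84.4 and 66.3 in the young libraries, with a change of -0.79 (adjusted p = 0.561). Ccr7, the receptor for the T cell zone chemokines, was 125, 250.4 and 282 in the aged and 287, 210.4 and 190.2 in the young libraries, with overlapping groups (change -0.18, unadjusted p = 0.59). Il7r, the survival cytokine receptor of naive and memory T cells, had a change of 0.73 (unadjusted p = 0.0531). The broader T cell identity list, with 22 of 23 genes tested, had a median of -0.41, 0 members higher and 5 lower at an unadjusted p under 0.05. Among 21 tested with all 6, it had a median of -0.34, 0 higher and 4 lower. Without young 2, the median was -0.11 when young 1 was also left out and -0.83 when young 3 was. The CD8 chains were among the lower members, with Cd8b1 at 70.4, 80.9 and 96.3 in the aged and 178, 131 and 121 in the young libraries (change -0.83, adjusted p = 0.404). Cd3e had a change of 0.30 (unadjusted p = 0.289).

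**Figure D3:**
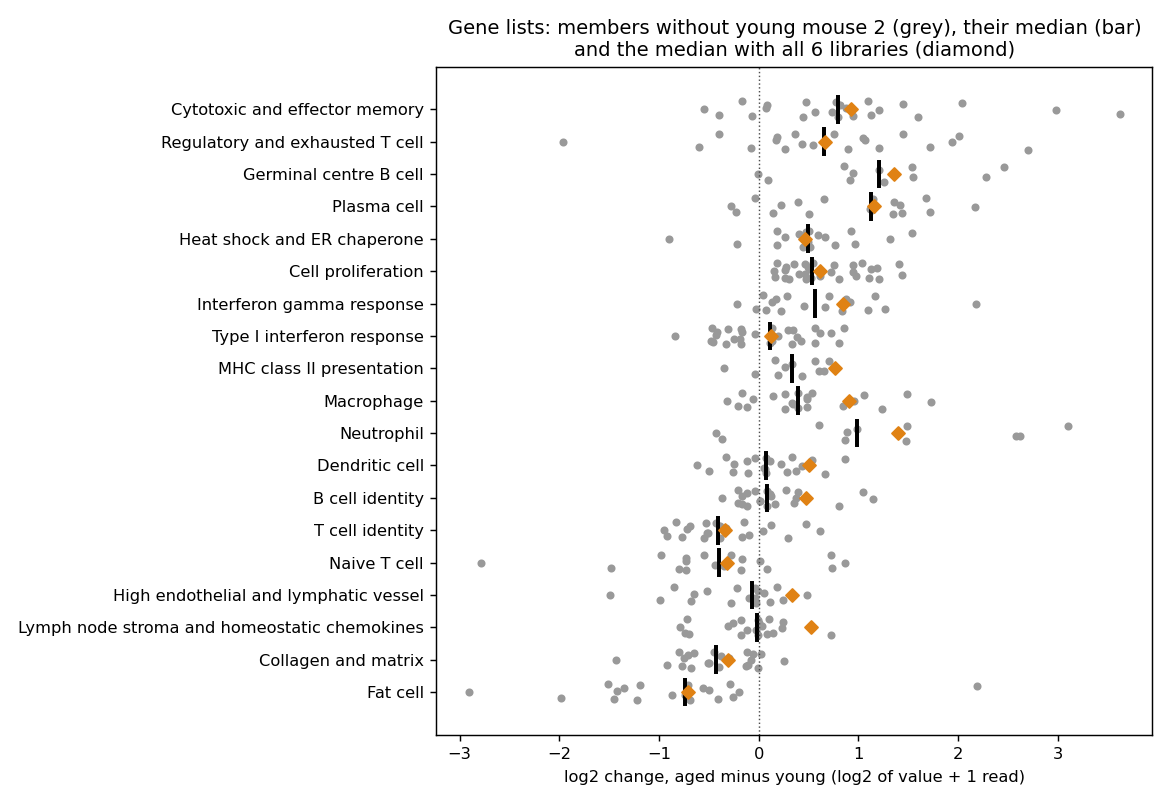
Log2 change, aged minus young (x axis), of the tested members of 19 gene lists (y axis): grey points are members in the fit without young 2, black bars their median, and orange diamonds the median with all 6 libraries. The bars of the germinal centre and plasma cell lists stand at 1.21 and 1.13, those of the T cell identity and naive T cell lists at -0.41 and -0.39, and the bars and diamonds of the stroma and vessel lists lie on different sides of 0.

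Germinal centre genes leaned to higher values in the aged nodes, and 1 of them, Nuggc, passed the threshold. Nuggc (NM_001195674), a nuclear GTPase of germinal centre B cells, was 35.2, 25.7 and 15.3 in the aged and 2.81, 1.13 and 3.9 in the young libraries. It rose with age by 2.46 (SE 0.45, adjusted p = 0.0153) without young 2 and 2.77 (SE 0.45, adjusted p = 0.0462) with all 6 libraries. Of the 12 genes of the germinal centre list, 11 were tested, with a median of 1.21 without young 2 and 1.36 with all 6 libraries, and 7 were higher and 0 lower at an unadjusted p under 0.05 in both fits. The shares of all genes were 4.62% higher and 2.84% lower without young 2, and 5.59% and 3.47% with all 6. Leaving out aged 2 as well as young 2 lowered the median to 0.80. The replicate number as a block in the fit without young 2 gave the same value. It is not a separate check, since it takes aged 2, which has no young partner there, out of the comparison. Mef2b, a transcription factor upstream of Bcl6, was 26.4, 82.2 and 24.7 in the aged and 11.2, 5.8 and 3.9 in the young libraries. Mef2b differed by 2.28 (SE 0.53, unadjusted p = 0.000885, adjusted p = 0.209) without young 2. S1pr2, the receptor that keeps B cells inside the germinal centre, was 32, 104 and 34 in the aged and 17.8, 8.96 and 21.5 in the young libraries. S1pr2 differed by 1.26 (SE 0.44, unadjusted p = 0.0121, adjusted p = 0.472) without young 2. Aged 2 was the highest library for both, and every aged value exceeded every young value. Bcl6, the factor that defines the germinal centre state, was 25.1, 30.8 and 39.9 in the aged and 16.9, 10.5 and 14.6 in the young libraries. Bcl6 differed by 0.94 (SE 0.35, unadjusted p = 0.0121, adjusted p = 0.472) without young 2. Fas, a death receptor of germinal centre cells, was 20.1, 16.7 and 17.6 in the aged and 18.7, 6.85 and 17.6 in the young libraries, with overlapping groups (change -0.0039, 0.41 with all 6, unadjusted p = 0.992 and 0.303). The summed list was 237, 459 and 228 in the aged and 126, 126 and 125 in the young libraries.

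General B cell genes lay near 0 without young 2 and above 0 with all 6 libraries, and the difference from the germinal centre list was not tested. The 22 tested genes of the B cell identity list had a median of 0.09 without young 2, with 14 above 0, and 3 members higher (4.62% of all genes) and 0 lower (2.84%) at an unadjusted p under 0.05. The 3 were Pou2af1, a B cell coactivator that germinal centres require, Ms4a1, which encodes CD20, and Blnk, an adaptor of the B cell receptor. Pou2af1 was 376, 446 and 282 in the aged and 169, 67.5 and 157 in the young libraries. Pou2af1 differed by 1.14 (SE 0.26, unadjusted p = 0.00017, adjusted p = 0.0824) without young 2. With all 6 libraries the median of this list was 0.48 and all 22 were above 0, against 5020 of 9680 over all genes. At an unadjusted p under 0.05, 4 were then higher (5.59% of all genes) and 0 lower (3.47%). Young 2 was the lowest library for most members. With 1 young library left in the fit, the median was 0.34 without young 1 and 2 and -0.19 without young 2 and 3. The list of age-associated B cells, an antigen-experienced subset that grows with age, had 10 of 11 members tested, a median of 0.61 and 3 members higher and 0 lower at an unadjusted p under 0.05 without young 2. The median of 9 with all 6 was 0.62, with 4 higher and 0 lower, and it was 1.12 without aged 2. The 3 were Tbx21, Fcer1g, an Fc receptor chain that myeloid cells share, and Itgax, which encodes CD11c and also marks dendritic cells, with changes of 1.59, 0.90 and 0.86 (adjusted p = 0.284, 0.401 and 0.612). The dendritic cell list had a median of 0.07 without young 2 and 0.50 with all 6.

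Plasma cell genes had a median of 1.13 without young 2 and 1.15 with all 6 libraries, with 9 of 18 and 10 of 17 tested members higher at an unadjusted p under 0.05 and 0 lower. Over all genes 4.62% and 5.59% were higher and 2.84% and 3.47% lower. Without aged 1 the medians were 0.60 and 0.55. No member passed the adjusted threshold. Jchain, which joins IgA and IgM into polymers, was 1675, 462 and 492 in the aged and 149, 129 and 173 in the young libraries. Every aged value exceeded every young value, with aged 1 far above the rest, and the change was 2.17 (SE 0.68, unadjusted p = 0.0316, adjusted p = 0.615) without young 2 and 2.27 (SE 0.45, unadjusted p = 0.000588, adjusted p = 0.17) with all 6 libraries. Mzb1, a chaperone of immunoglobulin secretion, was 954, 464 and 257 in the aged and 176, 51.7 and 201 in the young libraries. Mzb1 differed by 1.36 (SE 0.54, unadjusted p = 0.0475, adjusted p = 0.651) without young 2. Tnfrsf17, the plasma cell survival receptor BCMA, was 32, 11.8 and 14.1 in the aged and 6.55, 4.22 and 2.93 in the young libraries. Tnfrsf17 differed by 1.71 (SE 0.49, unadjusted p = 0.0018, adjusted p = 0.269) without young 2. Derl3, a component of the pathway that removes misfolded proteins from the endoplasmic reticulum (ER), was 89.8, 30.8 and 35.2 in the aged and 15, 6.85 and 17.6 in the young libraries. Derl3 differed by 1.44 (SE 0.39, unadjusted p = 0.00167, adjusted p = 0.269) without young 2. Txndc5, a disulfide isomerase, was 447, 134 and 163 in the aged and 77, 103 and 81.4 in the young libraries. Txndc5 differed by 1.42 (SE 0.47, unadjusted p = 0.0168, adjusted p = 0.541) without young 2. Prdm1, the master regulator of plasma cells, was at 9.42, 3.85 and 2.35 in the aged and 3.75, 1.05 and 5.85 in the young libraries, with overlapping groups (change -0.04). The summed plasma cell list was 4567, 1746 and 1539 in the aged and 924, 749.6 and 1019 in the young libraries.

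**Figure D4:**
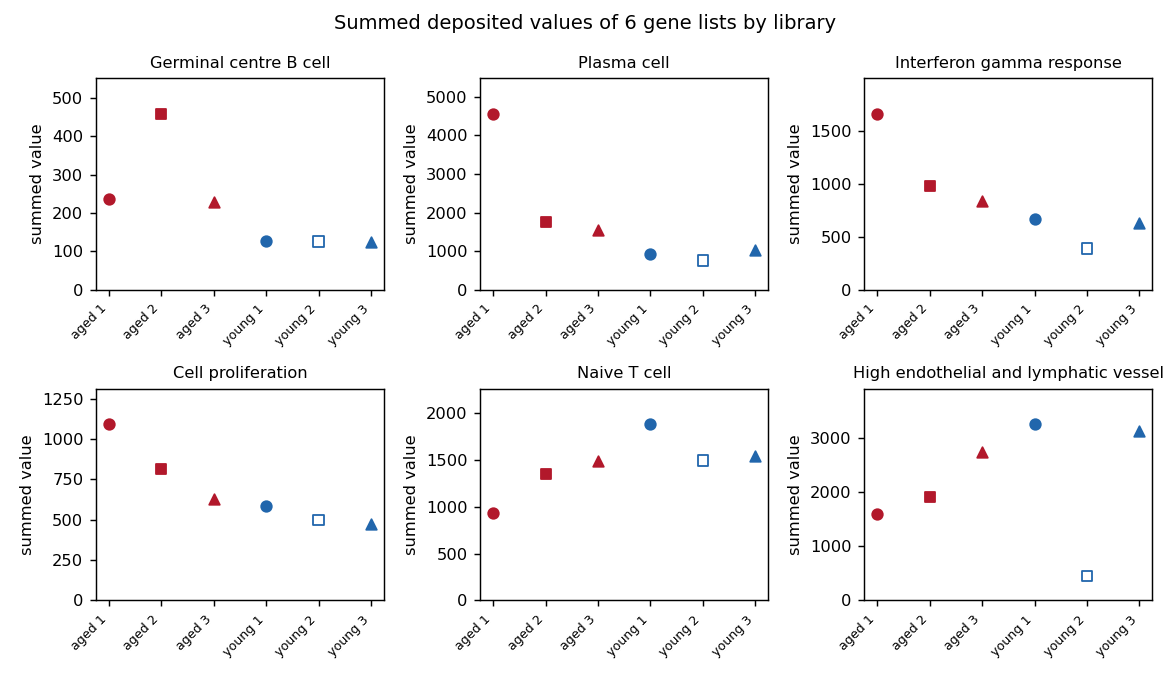
Summed deposited values (y axes, from 0) of 6 gene lists in each library (x axes; red aged, blue young, the open square young 2). For the germinal centre, plasma cell, interferon gamma and proliferation lists each aged point lies above each young point, while for the vessel list young 2 at 448 lies below all others.

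ER chaperones had values of the same direction. Of 19 tested genes of the heat shock and ER chaperone list without young 2, 7 were higher (4.62% of all genes) and 0 lower (2.84%) at an unadjusted p under 0.05, and the median was 0.50. When young 2 was kept, 5 were higher (5.59%) and 1 lower (3.47%), and the median was 0.47. Without aged 1 the medians were 0.28 and 0.29. Sdf2l1, an ER chaperone cofactor, was 189.7, 78.3 and 55.2 in the aged and 26.2, 40.1 and 51.9 in the young libraries. Sdf2l1 differed by 1.31 (SE 0.53, unadjusted p = 0.04, adjusted p = 0.633) without young 2. Dnajc3, an ER co-chaperone, was 104, 62.9 and 48.1 in the aged and 22.5, 26.9 and 51.7 in the young libraries. Dnajc3 differed by 0.97 (SE 0.37, unadjusted p = 0.0183, adjusted p = 0.554) without young 2. Hspa5, the main ER chaperone BiP, was 1161, 611 and 649 in the aged and 569, 422 and 566 in the young libraries. Hspa5 differed by 0.44 (SE 0.26, unadjusted p = 0.101, adjusted p = 0.754) without young 2. Hsp90b1 was 2384, 580.2 and 681 in the aged and 802, 557 and 833 in the young libraries, a change of 0.26 (SE 0.78, unadjusted p = 0.755, adjusted p = 0.982) without young 2 and 0.45 with all 6, with aged 1 high and aged 2 and 3 inside the young range. Many ER genes carry the ER stress response element, CCAAT and CCACG with 9 bases between them, searched here on both strands. It occurred in 0.119% of 32851 RefSeq promoter windows of 300 bases (build GRCm38.p6, 250 bases before to 50 after the start). The lists were counted by gene, with a match in any window, which is not the same measure as a share of windows. By gene it occurred in 6 of 16 of the chaperone list and in 2 of 16 of the plasma cell list. The 80 bases around the match are shown for 4 of these 8 genes, because they hold the same element beside changes of different size; capitals mark the match, and each runs 5′ to 3′ on the strand of the gene.
Derl3 (chr10:75893211-75893290, plus strand): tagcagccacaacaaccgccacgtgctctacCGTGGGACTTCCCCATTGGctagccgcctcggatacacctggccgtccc
Creld2 (chr15:88819489-88819568, plus strand): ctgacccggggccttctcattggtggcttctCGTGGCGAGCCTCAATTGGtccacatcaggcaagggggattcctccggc
Dnajc3 (chr14:118937796-118937875, plus strand): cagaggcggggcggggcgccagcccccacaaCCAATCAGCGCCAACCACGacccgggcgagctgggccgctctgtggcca
Hsp90b1 (chr10:86705503-86705582, minus strand): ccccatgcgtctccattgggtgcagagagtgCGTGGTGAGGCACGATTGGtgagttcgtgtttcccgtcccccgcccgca
The changes without young 2 were 1.44 for Derl3, 1.12 for Creld2, a secreted ER protein, 0.97 for Dnajc3 and 0.26 for Hsp90b1. A match of letters is a description of the sequence and was not tested against binding.

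Cell cycle genes leaned slightly to higher values, and none of the list passed the adjusted threshold. All 30 tested members of the 31-gene proliferation list had a change above 0 without young 2, with a median of 0.53. Over all genes, 5150 of 10165 had one above 0. Of the 30, 9 were higher at an unadjusted p under 0.05 (4.62% of all genes) and 0 lower (2.84%). With all 6 libraries 29 of 30 were above 0, against 5020 of 9680 over all genes, and the median was 0.61. In that fit 8 members were higher (5.59% of all genes) and 0 lower (3.47%). Ccnb1, the mitotic cyclin, was 19.9, 24.4 and 10.6 in the aged and 5.62, 8.44 and 5.53 in the young libraries. Ccnb1 differed by 1.44 (SE 0.45, unadjusted p = 0.00383, adjusted p = 0.325) without young 2. Mcm5, a subunit of the replicative helicase, was 58.4, 74.5 and 38.7 in the aged and 36.5, 27.4 and 21.5 in the young libraries. Mcm5 differed by 0.95 (SE 0.33, unadjusted p = 0.00896, adjusted p = 0.436) without young 2. Mki67, the proliferation antigen Ki-67, was 57.8, 43.7 and 31.7 in the aged and 29.2, 23.3 and 31.5 in the young libraries, so the aged 3 value stood just above the highest young value, and the change was 0.49 (SE 0.32, unadjusted p = 0.138, adjusted p = 0.786) without young 2. Mcm10 (NM_027290), which activates the helicase at replication origins and was not on the list, was 9.72, 39 and 28.7 in the aged and 2.26, 2.84 and 1.74 in the young libraries. Aged 2 and 3 stood far above every young library and aged 1 lay between. Mcm10 rose by 2.86 (SE 0.52, adjusted p = 0.0153) without young 2, and it did not pass with all 6 libraries (2.75, adjusted p = 0.0911).

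Neutrophil genes supplied 3 of the 10 higher calls without young 2. S100a9 (NM_009114) and S100a8 (NM_013650) encode the subunits of calprotectin, an abundant protein of the neutrophil cytosol. S100a9 was 98.6, 44.9 and 77.5 in the aged and 8.43, 13.2 and 5.85 in the young libraries. It rose by 3.10 (SE 0.36, adjusted p = 4.37e-05) without young 2 and 2.83 (SE 0.36, adjusted p = 0.00991) with all 6 libraries. S100a8 was 39.6, 29.5 and 41.1 in the aged and 10.3, 4.75 and 1.95 in the young libraries. It rose by 2.62 without young 2 (SE 0.46, adjusted p = 0.0153), and its adjusted p with all 6 libraries was 0.0532. Ngp (NM_008694), a protein of neutrophil granules, was 13.8, 12.8 and 27 in the aged and 2.81, 3.69 and 0.975 in the young libraries. It rose by 2.58 without young 2 (SE 0.51, adjusted p = 0.0336; 0.113 with all 6). For all 3 the lowest aged value stood above the highest young value. Of the 16 genes of the neutrophil list, 11 were tested, with a median of 0.99, 5 higher (4.62% of all genes) and 0 lower (2.84%) at an unadjusted p under 0.05 without young 2. When young 2 was kept, 10 were tested, with a median of 1.40, 6 higher (5.59%) and 0 lower (3.47%). The medians moved with the added constant: they were 0.60 and 0.89 with one 4 times as large, and 1.92 and 2.18 with it and the filter set from the smallest value. Camp, an antimicrobial peptide of granules, was 11.3, 7.7 and 8.22 in the aged and 1.87, 4.22 and 2.93 in the young libraries (change 1.49, adjusted p = 0.483). Mpo, the peroxidase of neutrophil precursors, was too low to test at 1.88, 2.57 and 2.35 in the aged and 0.936, 1.05 and 0 in the young libraries. Elane, a protease of the same precursors, was 543, 389 and 533 in the aged and 634, 422 and 612 in the young libraries, higher than any other gene of the list, with overlapping groups and a change of -0.37, -0.18 with all 6 (unadjusted p = 0.132 and 0.507).

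Haemoglobin transcripts, a sign of blood, were also higher in aged libraries 2 and 3. The summed erythroid list was 69.7, 229.8 and 156 in the aged and 51, 92.5 and 73.1 in the young libraries, and Hba-a1, whose values equal those of its copy Hba-a2, had a change of 1.35 without young 2 and 1.29 with all 6 (unadjusted p = 0.0848 and 0.0326). Aged 1 lay within the young range on this sum. The sum also counts Tfrc, the transferrin receptor, whose change was below 0 without young 2. Whether blood left in the nodes had a part in the neutrophil genes was not tested.

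The windows of S100a9 and Ngp held the letters TTGC and AA with 2 bases between them, the core of sites for C/EBP factors, which drive granule genes in myeloid cells. Read on both strands, the letters were in 10.8% of all promoter windows. Counted by gene, with a match in any window, they were in 7 of 15 genes of the neutrophil list, which is not the same measure. The first or last 80 bases upstream of the start are shown, since these are 2 of the 3 called neutrophil genes; capitals mark the match.
S100a9 (chr3:90695892-90695971, minus strand): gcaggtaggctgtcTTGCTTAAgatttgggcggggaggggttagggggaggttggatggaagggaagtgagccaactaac
Ngp (chr9:110419728-110419807, plus strand): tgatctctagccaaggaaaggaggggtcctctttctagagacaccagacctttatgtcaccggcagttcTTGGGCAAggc

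Values for genes of macrophages and antigen presentation differed with and without young 2. With all 6 libraries the 22 tested macrophage genes had a median of 0.91 and all 22 were above 0. Of these, 7 were higher at an unadjusted p under 0.05 (5.59% of all genes) and 0 lower (3.47%). Without young 2 the median was 0.39 and 17 were above 0, with 6 higher (4.62%) and 0 lower (2.84%) at that level. Over all genes tested, 5020 of 9680 lay above 0 with all 6 libraries and 5150 of 10165 without young 2. Marco, a scavenger receptor of medullary macrophages, was 411, 459.6 and 582 in the aged and 473, 41.7 and 573 in the young libraries, with young 2 far below the other 5 libraries. Siglec1, the sialic acid receptor of subcapsular sinus macrophages, was 42.1, 112 and 96.3 in the aged and 19.7, 4.22 and 25.4 in the young libraries, and the aged values exceeded the young values in either comparison. Its change was 1.73 (SE 0.36, unadjusted p = 0.000137, adjusted p = 0.0735) without young 2. Cd68, a lysosomal protein of macrophages, was 59.7, 77 and 56.4 in the aged and 29, 11.1 and 41.9 in the young libraries. Cd68 differed by 0.85 (SE 0.30, unadjusted p = 0.00945, adjusted p = 0.443) without young 2 and by 1.36 with all 6. Pla2g2d (NM_011109), a secreted phospholipase of dendritic cells and macrophages in lymphoid tissue, was 206, 218 and 163 in the aged and 79.8, 23.2 and 53.7 in the young libraries. It rose by 1.55 (SE 0.28, adjusted p = 0.0153) without young 2, while the adjusted p with all 6 libraries was 0.11. MHC class II genes had a median of 0.33 without young 2 and 0.76 with all 6. Without young 2, it was 0.59 when young 1 was also left out and 0.10 when young 3 was. H2-Ab1, a class II chain, was 1036, 1175 and 1179 in the aged and 792, 336 and 648 in the young libraries (change 0.65, 1.02 with all 6, adjusted p = 0.387 and 0.33), and Cd74, the invariant chain, was 3787, 4304 and 3990.5 in the aged and 4179, 1789 and 3069 in the young libraries (change 0.17, 0.50 with all 6, unadjusted p = 0.404 and 0.117).

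Genes of the interferon gamma response tended to higher values in the aged nodes, and genes of the type I interferon response lay near 0. Of 18 tested genes of the interferon gamma list, 6 were higher and 0 lower at an unadjusted p under 0.05 without young 2 (4.62% and 2.84% of all genes), with a median of 0.56. When young 2 was kept, 7 were higher and 0 lower (5.59% and 3.47%), with a median of 0.84. Without aged 1 the medians of this list were 0.12 and 0.43. Of 29 tested genes of the type I interferon list, 0 were higher or lower at that level without young 2 and the median was 0.11, and with all 6 libraries 3 of 27 were higher with a median of 0.12. Without aged 1 the type I medians were -0.23 and -0.04. The difference between the lists was not tested. Serpina3g, a protease inhibitor induced by interferon gamma, was 285, 176 and 142 in the aged and 79.8, 24.8 and 78.8 in the young libraries. Serpina3g differed by 1.27 (SE 0.29, unadjusted p = 0.000239, adjusted p = 0.0973) without young 2. Socs1, the feedback inhibitor of cytokine signalling, was 90.5, 69.5 and 52.8 in the aged and 35.6, 25.3 and 25.6 in the young libraries. Socs1 differed by 1.16 (SE 0.31, unadjusted p = 0.000948, adjusted p = 0.214) without young 2. Gbp5 and Gbp7 are guanylate-binding proteins of cell-autonomous defence. Gbp5 was 55, 56.5 and 27.6 in the aged and 14, 10 and 28.3 in the young libraries, with aged 3 just under young 3, and Gbp7 was 37.1, 28.2 and 36.4 in the aged and 17.8, 15.3 and 16.6 in the young libraries, with every aged value above every young one. Their changes were 1.09 and 0.92 (adjusted p = 0.407 and 0.462). Cxcl9, a chemokine for activated T cells, was 332, 97.6 and 41.1 in the aged and 25.3, 4.22 and 21.5 in the young libraries, so the spread between aged libraries was wide (change 2.18, 2.90 with all 6, unadjusted p = 0.118 and 0.0346). Ifng itself was 17.6, 5.14 and 3.52 in the aged and 0, 0.527 and 1.95 in the young libraries. On the type I side, Irf7, the amplifier of that response, was 96.1, 24.4 and 39.9 in the aged and 47.8, 53.3 and 36.1 in the young libraries (change 0.13, 0.01 with all 6, unadjusted p = 0.79 and 0.973), and Isg15, a ubiquitin-like effector, was 58.4, 29.5 and 25.8 in the aged and 21.5, 8.96 and 20.5 in the young libraries (change 0.72, 1.10 with all 6, unadjusted p = 0.0537 and 0.015).

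Interferon-stimulated response elements hold the letters GAAA in a pair with 2 bases between them, and matches may overlap each other. On both strands together, 3.44% of all promoter windows held them. Counted by gene, with a match in any window, 10 of 14 genes of the interferon gamma list did, which is not the same measure as a share of windows. The type I interferon list was not counted, so the letters are not shown to be particular to the interferon gamma list. The 3 shown are from the members described above; capitals mark all matches in the 80 bases.
Gbp5 (chr3:142496734-142496813, plus strand): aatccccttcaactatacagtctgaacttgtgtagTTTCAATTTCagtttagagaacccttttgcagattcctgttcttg
Gbp7 (chr3:142530248-142530327, plus strand): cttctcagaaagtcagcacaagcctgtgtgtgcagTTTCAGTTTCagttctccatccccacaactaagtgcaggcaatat
Socs1 (chr16:10785569-10785648, minus strand): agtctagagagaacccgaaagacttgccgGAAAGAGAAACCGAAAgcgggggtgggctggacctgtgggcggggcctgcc
Other interferon gamma genes with the same letters, such as Irgm1 and Igtp, GTPases of the same defence, had changes of 0.07 and 0.04 without young 2 (unadjusted p = 0.869 and 0.915) and 0.12 and 0.18 with all 6.

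Among genes of vessels and stroma, the direction turned on young 2. The vessel list had a median of 0.34 with all 6 libraries and -0.07 without young 2, and the stroma list 0.53 and -0.02. Madcam1, the mucosal addressin through which gut-homing lymphocytes enter, was 12.6, 19.3 and 24.7 in the aged and 59.9, 8.44 and 47.8 in the young libraries. The aged values lay below young 1 and 3 but above young 2, and the change was -1.49 (SE 0.34, unadjusted p = 0.000229, adjusted p = 0.0968) without young 2, against -0.66 (adjusted p = 0.803) with all 6. Glycam1, a sulphated mucin of high endothelial venules, was 753, 1014 and 1700.0 in the aged and 2262, 174 and 2087 in the young libraries, a change of -0.99 (SE 0.28, unadjusted p = 0.00248, adjusted p = 0.284) without young 2 and 0.22 with all 6. Cxcl13, the follicular chemokine, was 79.8, 43.7 and 82.2 in the aged and 131, 5.8 and 88.8 in the young libraries (change -0.70, 0.62 with all 6, unadjusted p = 0.0357 and 0.65). Ccl19, a T cell zone chemokine, was 52.2, 64.8 and 54.2 in the aged and 68.9, 11.3 and 48.9 in the young libraries and Ccl21a, as given above, overlapped likewise (unadjusted p = 0.916 and 0.993). Their changes were -0.03 and -0.002 without young 2 and 0.72 and 0.74 with all 6. The 22 tested collagen and matrix genes had a median of -0.42 without young 2. At an unadjusted p under 0.05, 0 of them were higher (4.62% of all genes) and 2 lower (2.84%). With all 6 the median was -0.31, with 0 higher (5.59%) and 3 lower (3.47%). The median was -0.06 when young 2 and 3 were both left out. Col1a1 was 28.3, 55.2 and 32.9 in the aged and 44.9, 58.7 and 63.5 in the young libraries and Col3a1, the fibrillar collagen of the reticular network, was 20.7, 30.8 and 28.2 in the aged and 22.5, 70.1 and 83.9 in the young libraries, and neither separated by age (unadjusted p = 0.132 and 0.136).

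Fat cell transcripts varied between libraries. The summed fat cell list was 1606, 6776 and 2296 in the aged and 3331, 3411 and 17143 in the young libraries, with the highest sum in young 3. The median of the list was -0.74 without young 2 and 0.34 when young 3 was also left out, so its sign turned on young 3. Without young 2, 18 of 19 tested members had log2 changes below 0, against 5015 of 10165 over all genes. Lep, the fat cell hormone leptin, was the exception at 8.79, 10.3 and 14.1 in the aged and 1.87, 1.58 and 0.975 in the young libraries. Lep differed by 2.18 (SE 0.57, unadjusted p = 0.000762, adjusted p = 0.194) without young 2. Sncg (NM_011430), which encodes gamma-synuclein and is known from neurons and fat cells, was 44.6, 53.9 and 37.6 in the aged and 7.49, 10 and 12.7 in the young libraries. It rose by 2.06 (SE 0.35, adjusted p = 0.00945) without young 2 and 2.05 (SE 0.31, adjusted p = 0.0462) with all 6 libraries. Young 3, with the largest fat sum, had 12.7, and aged 1, with the smallest, had 44.6. The highest value in the 4 organs was 1222 in the inguinal library of aged 3, which was rich in fat transcripts, with Adipoq at 1917. The part of fat cells in the Sncg values was not tested.

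C130026I21Rik (NM_001037909), whose function is not described here, had the smallest p of all. It was 128, 58.4 and 59.7 in the aged and 1.25, 1.05 and 0.975 in the young libraries, about the worth of 1 or 2 reads in each young library. It rose by 5.02 (SE 0.40, adjusted p = 8.27e-08) without young 2 and 5.03 (SE 0.39, adjusted p = 4.86e-05) with all 6 libraries. Gm7609 (NM_001081746), its neighbour in the RefSeq annotation (GRCm38.p6), was chosen after its values were seen and was 15.1, 16.7 and 12 in the aged and 3.2, 1.61 and 3.41 in the young libraries. Gm7609 differed by 1.78 (SE 0.46, unadjusted p = 0.000817, adjusted p = 0.198) without young 2. The locus holds several related gene models and pseudogenes, so reads may be split between copies and both values are uncertain. Irak1bp1 (NM_001168240), which binds a kinase of the interleukin 1 and Toll-like receptor pathway, was 11.9, 27 and 14.1 in the aged and 0, 2.64 and 1.95 in the young libraries. It rose by 3.14 (SE 0.56, adjusted p = 0.0153) without young 2, and its adjusted p with all 6 was 0.103.

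Of the genes that did not pass but had the smallest p values, Lpxn, an adaptor protein of haematopoietic cells, was 62.2, 77 and 66.9 in the aged and 28.1, 12.1 and 22.4 in the young libraries (adjusted p = 0.0658 without young 2 and 0.0911 with all 6). Zc3h12d, an RNA-binding regulator of lymphocytes, was 54.7, 71.9 and 62.2 in the aged and 19.7, 20 and 27.3 in the young libraries (adjusted p = 0.0727 and 0.099). On the lower side, Als2cl was 28.9, 32.1 and 41.1 in the aged and 126, 99.7 and 72.2 in the young libraries (change -1.47, adjusted p = 0.066 and 0.101), and Itm2a, a membrane protein of T cells, was 4.4, 3.85 and 7.04 in the aged and 20.6, 8.44 and 21.5 in the young libraries (change -1.84, adjusted p = 0.175). In these 4 genes, chosen by their p in the same libraries, the aged and young values did not overlap. That also held for 9.39% (higher) and 6.05% (lower) of all genes with the 6 libraries. Cdkn2a, whose transcripts p16 and p19 are markers of senescent cells, has 2 transcripts in these data, and their values differ. The one of the highest mean, the only one described here, was 6.91, 6.42 and 5.87 in the aged and 0.936, 0.527 and 0.975 in the young libraries. Cdkn2a differed by 1.78 (SE 0.71, unadjusted p = 0.0201, adjusted p = 0.564) without young 2.

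To ask whether the age difference was larger here than elsewhere, the age effect in mesenteric nodes was set against its mean in cervical nodes, inguinal nodes and spleen, with the mouse as a term. None of 11833 genes passed (limma, 0 higher and 0 lower), and 248 were higher (2.1%) and 288 lower (2.43%) at an unadjusted p under 0.05. Several of the genes called in mesenteric nodes lay apart by age in the other organs too. C130026I21Rik was 60.9, 47 and 48.2 in the aged and 0.277 and 0 in the young cervical libraries, 41.1, 39.9 and 42.5 in the aged and 3.15, 0.814 and 3.1 in the young inguinal libraries and 88.3, 63.1 and 61.3 in the aged and 0.529, 0.8 and 0.14 in the young spleen libraries. Gzmk was 15.5, 7.48 and 7.87 in the aged and 0 and 0 in the young cervical libraries and 10.6, 23.9 and 16.8 in the aged and 0, 0 and 0 in the young spleen libraries, and in inguinal nodes it was 13.4, 8.15 and 1.68 in the aged and 1.52, 0 and 0 in the young, where aged 3 was close to young 1. Dapl1 was 2.22, 6.41 and 2.25 in the aged and 56.4 and 83.1 in the young cervical libraries, 5.95, 9.17 and 0 in the aged and 71.3, 48.8 and 50.5 in the young inguinal libraries and 3.97, 3.78 and 0.6 in the aged and 20.1, 9.6 and 20.6 in the young spleen libraries. The contrast was 0.77 (SE 0.44, unadjusted p = 0.101, adjusted p = 0.946) for Dapl1 and 0.77 (SE 0.62, unadjusted p = 0.226, adjusted p = 0.946) for Gzmk.

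Germinal centre genes were low in the other organs. Of the list, 6 genes passed the filter in cervical nodes, 5 in inguinal nodes and 6 in spleen, beside 11 in mesenteric nodes, so no list value of the contrast is given. The value of the filter differed between organs. The age effects of those that passed had medians of 0.40, -0.07 and 0.19 with all libraries. Without young 2 the medians were 0.08, -0.03 and 0.44, with young 3 as the only young cervical library. Nuggc was 4.44, 3.21 and 2.25 in the aged and 1.66 and 1.14 in the young cervical libraries, 0, 5.09 and 0 in the aged and 6.07, 1.63 and 2.66 in the young inguinal libraries and 10.6, 3.78 and 1.2 in the aged and 0, 0 and 0 in the young spleen libraries. Its contrast was 2.15 (SE 0.64, unadjusted p = 0.00333, adjusted p = 0.946). B cell identity genes had a median contrast of 0.63, against 0.02 over all genes, with 22 of 22 above 0 (6106 of 11833 over all genes). At an unadjusted p under 0.05, 2 of them were higher (2.1% of all genes) and 0 lower (2.43%). Other node lists lay above 0 as well, with median contrasts of 0.51 for T cell identity, 0.51 for dendritic cells and 0.69 for stroma. Those of collagen and matrix (-0.41) and fat cells (-1.40) lay below 0. Young 2, the lowest mesenteric library for most B cell identity genes, enters all of these. No list median of the contrast was computed without young 2. Plasma cell genes had a median contrast of 0.18 with 0 of 18 at an unadjusted p under 0.05 in either direction, and Jchain was 677, 310.1 and 286 in the aged and 74.7 and 108 in the young cervical libraries and 699, 419 and 320.2 in the aged and 189, 130.4 and 190.4 in the young spleen libraries. S100a9 had a contrast of 1.68 (SE 0.43, unadjusted p = 0.00092, adjusted p = 0.946). In spleen it was already high in the young, at 361, 565 and 532 in the aged and 144, 157 and 124 in the young libraries. The naive T cell list had a median of -0.62 in cervical, -1.48 in inguinal nodes and -0.29 in spleen, beside -0.32 in mesenteric nodes with all 6 libraries. Without young 2 it was -0.83, -1.46 and -0.43, beside -0.39 in mesenteric nodes. The inguinal library of aged 3 was rich in fat transcripts, with Adipoq in inguinal nodes at 32.7, 25.5 and 1917 in the aged and 211, 75.7 and 9.3 in the young, and young 2 enters this contrast.

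**Figure D5:**
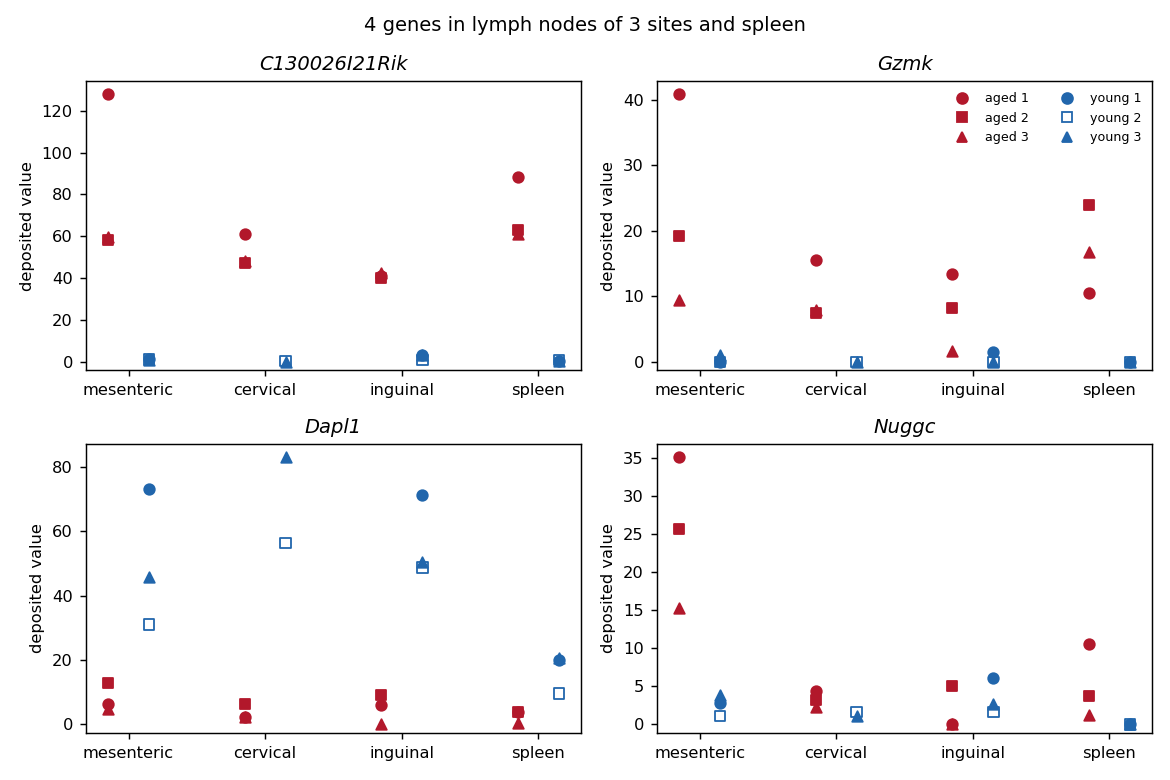
Deposited values (y axes) of C130026I21Rik, Gzmk, Dapl1 and Nuggc in mesenteric, cervical and inguinal nodes and spleen (x axes), 1 point per library (red aged, blue young, the open square young 2; cervical nodes have 2 young libraries). C130026I21Rik separates the ages in all 4 organs, while Nuggc reaches 15.3 to 35.2 in aged mesenteric nodes and at most 10.6 in the other 3.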

How the data were processed

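RNA-seq values of 6 mesenteric lymph node libraries were analysed, with 17 libraries of cervical and inguinal nodes and spleen for comparison and 5 colon libraries to define colon genes. The deposited signal values are normalised per library; the submitters' processing notes name TopHat and mm9, and how they were counted and scaled is not stated in the sources used. Between 78.8% and 82.7% of values above 0 in each mesenteric library were whole multiples of 1 step (tolerance 0.001), which gives the value of 1 read and the depth. The other values were fractional, which may reflect weighted reads, so no count test was used. In all, 20587 genes were kept from 25865 transcripts, each by its transcript of the highest mean; 768 genes have transcripts that differ. One column of the table, labelled as a cervical library, matched no sample and was left out.

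In mesenteric nodes, limma 3.58.1 (R 4.3.3, trend and robust) was fitted to log2(value + 1.28). Genes were kept with a value of 5.14 or more, worth 4 reads, in a number of libraries no smaller than the smaller group. Each fit took the constant, and the filter of 4 reads, from the largest value of 1 read in its own libraries. The constant was 1.68 in the contrast and in inguinal nodes, 1.14 in cervical nodes and 1.32 in spleen. Values of different organs are thus not on exactly 1 scale. p-values were adjusted by the Benjamini-Hochberg method, with calls under 0.05, and the fit was tested on simulated data. A colon gene had a mean in colon at least 4 times that in the 14 cervical, inguinal and spleen libraries of the same mice and reached 10 reads. Named genes were all called genes, the 10 of smallest p in a direction with fewer calls, the largest contrasts, up to 6 members of smallest p per list and a fixed set of markers; other list members were named after their values were seen. Some genes of that set are not reported here. Members and lists were chosen with earlier results of these data known. The labels do not say how mice were housed or bred, so p-values measure the spread between these samples.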

Additional observations from a re-analysis of the deposited data

How the results depend on the processing

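The number of called genes, 6 with all 6 libraries and 11 without young 2, was 6 and 10 under quantile normalisation, 6 and 11 when scaled to the total without colon and pancreas genes, and 7 and 10 with a pseudocount 4 times as large. It was 1 and 2 with a pseudocount and filter from the smallest value, 1 and 2 with no filter on low values, 1 and 1 with limma without a trend, and 0 and 3 with voom on the weighted reads (913 and 741 at an unadjusted p under 0.05). With a colon score as a covariate 4 genes passed. Without young 2 and 3 it was 8, a fit with 1 young library, assumed to vary like the aged ones, so that only the aged group gave the spread. Leaving out 1 library in turn gave 1 to 11 genes from the full set and 3 to 38 from the set without young 2, where 13 of the 38, reached without young 1, were higher and 25 lower. The fits that leave out young 1 or 3 from that set also hold 1 young library. The contrast with other organs gave 0 calls in all 14 alternatives. The cause of these changes was not tested.

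Same-numbered aged and young mice shared only a number: their deviations correlated at 0.14, 0.01 and -0.07. With the number as a replicate block, 2 genes passed with all 6 libraries and 68 without young 2. Of the 68, 29 were higher and 39 lower, against 10 and 1 without the block. Without young 2, aged 2 has no young partner, so the block takes aged 2 out of the comparison. The spread then rests on the remaining same-numbered pairs alone, and the 68 are not a paired result over all mice. Among single genes, 19 values changed sign under an alternative, none of them called. Without young 2, Gzma was 0.0154 with voom, 0.0347 with the replicate block and between -0.33 and 0.0932 with 1 library left out, and Ccl21a was 0.00329 under quantile normalisation, 0.0531 with the block and between -0.10 and 0.10. With 1 library left out, Ccr7 ranged from -0.47 to 0.18, Foxp3 from -0.41 to 0.26, Ccl19 from -0.27 to 0.21, Irf7 from -0.40 to 0.57 and Col3a1 from -1.63 to 0.21. Depth limits genes of a few reads: below 5.14 they were mostly untested, and a gene at 0 in a library may be expressed under the worth of 1 read.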
